A study of Arabidopsis thaliana with 6 samples.

Results

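The genes described here are members of a small group of Arabidopsis stress regulators that carry C2H2 zinc fingers, the ZAT and AZF genes. The 9 loci were listed by name, namely ZAT10, ZAT12, ZAT6, ZAT7, ZAT11, ZAT5, AZF1, AZF2 and AZF3, and a locus was kept if a probe set could be assigned to that gene alone. This held for 5 of the 9, namely ZAT6 (AT5G04340), ZAT10 (AT1G27730), AZF2 (AT3G19580), ZAT11 (AT2G37430) and ZAT5 (AT2G28200), out of 14276 named genes in all. ZAT12 (AT5G59820), ZAT7 (AT3G46090), AZF1 (AT5G67450) and AZF3 (AT5G43170) had no probe set named for them in either naming source and were not analysed here. The sources were the platform annotation and the available part of the study's list of H2O2-responsive genes. Whether the full list holds these loci is not known here. Each of the 5 genes was represented by 1 probe set.

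The samples were wild type Col-0 plants of Arabidopsis grown hydroponically. Control plants stayed in medium without NaCl (n = 3 arrays), and salt plants received 150 mM NaCl for 4 d (n = 3 arrays). The labels give rosettes of plants 28 d old, whereas the paper counts 28 d as the age when treatment began, and it describes the 3 arrays of a group as independent biological replications of entire shoots. No mutant, transgene or further treatment was part of either group, and the salt was given through the roots. RNA was hybridized to Affymetrix ATH1 arrays, on which a probe set is a group of short probes against 1 transcript. Values are log2 expression after robust multiarray averaging (RMA), so a difference of 1 is a 2-fold change. In whole rosettes, fewer cells of a type and less RNA per cell cannot be told apart.

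ZAT and AZF proteins bind DNA through a pair of C2H2 zinc fingers. Many of them also carry an EAR motif near the C-terminus, a short repression motif through which plant transcription factors recruit TOPLESS-type corepressors, and they are therefore known mainly as repressors. Their transcripts are known as early and transient responders to salt, cold, wounding, strong light and reactive oxygen species (ROS) such as H2O2. The arrays were taken at 4 d, in plants in which the study examined salt-induced senescence.

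Some array signals of RNA composition differed between the groups. The 25S ribosomal RNA signal ranged from 7.16 to 7.84 in control and from 9.05 to 10.24 in salt samples, and the excess of the 3′ over the 5′ actin probe set ranged from 3.11 to 3.23 in control and from 3.36 to 3.66 in salt samples. For GAPDH this excess was instead lower with salt, at 0.07 to 0.37 against 0.39 to 0.45 in control samples. The 5S ribosomal RNA signal overlapped between the groups, at 5.90 to 6.99 in control and 5.04 to 6.71 in salt samples. The part of these signals in the results was not tested. Over all probe sets, control arrays correlated with each other at 0.993 to 0.997 and salt arrays at 0.980 to 0.988. As a check of the tissue, the leaf genes LHCB4.1 and RCA lay between 13.20 and 13.71 on all 6 arrays, and the root genes CASP1 and EXP7 between 5.59 and 6.23. PYK10, which encodes a beta-glucosidase abundant in roots, lay between 9.04 and 9.42 in control and between 8.02 and 9.02 in salt samples. Only 2 of 14 listed leaf markers and 3 of 8 root markers were measured, and none of 4 flower markers.

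Of the 5 measured genes, 4 were higher in salt-treated plants and 0 were lower (limma, adjusted p under 0.05 over all genes). Among all named genes, 11.4% were called higher and 12.3% lower. ZAT6, ZAT10 and AZF2 rose between 4.7-fold and 8.04-fold, ZAT5 rose 1.29-fold, and ZAT11, with a 3.32-fold higher mean, did not pass the test. The median difference of the 5 genes was 2.23 on the log2 scale, beside -0.03 over all genes. All 3 salt arrays lay above all 3 control arrays for each of the 5 genes, which was true of 18.9% of all genes. A mean at least 2-fold higher was found for 4 of the 5 genes and for 5.32% of all genes. The choice of genes and the naming of probe sets bear on these counts. The loci were listed with earlier results of these data known, so the shares beside the counts are a description only. ZAT6, AZF2 and ZAT11 were named only through a supplementary list of H2O2-responsive loci, which came from a separate experiment of the study. Of the 921 genes named in this way, 36.9% were called higher with salt and 11.6% lower, and their median difference was 0.29. The shares of 18.9% and 5.32% cover all genes and were not taken for these 921 alone. ZAT10 and ZAT5 were named through the platform annotation.

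**Figure D1:**
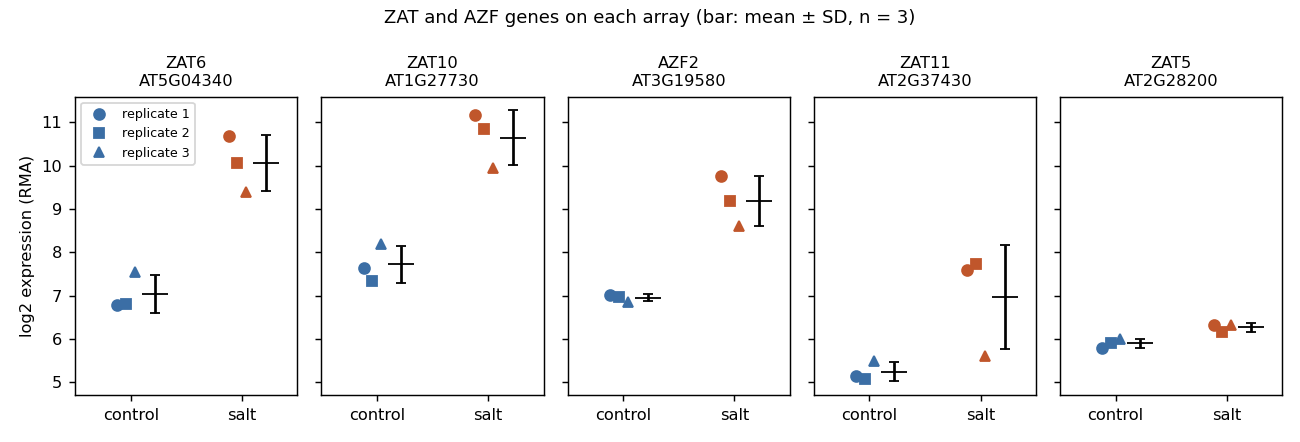
Log2 expression (RMA) of the 5 measured genes on each array, with control arrays in blue and salt arrays in orange. Marker shapes give the replicate number, and black bars are the mean ± SD (n = 3). ZAT6, ZAT10 and AZF2 show wide gaps between the groups, whereas salt replicate 3 of ZAT11, at 5.60, lies just above the highest control array, at 5.50.

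ZAT6, a regulator known for roles in root growth, phosphate homeostasis and metal tolerance, had the largest difference. Its log2 values were 6.78, 6.81 and 7.55 in control replicates 1, 2 and 3, and 10.69, 10.07 and 9.40 in salt replicates 1, 2 and 3. Control replicate 3 was the highest of its group and salt replicate 3 the lowest, and the groups stood 1.85 apart at their nearest arrays. The mean went from 7.05 ± 0.44 (SD, n = 3) to 10.05 ± 0.65 (SD, n = 3), which is 3.01 higher on the log2 scale (SE 0.35, limma adjusted p = 0.0020). This difference was the 56th largest rise among the 14276 genes.

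ZAT10, also called STZ for salt tolerance zinc finger, is known from work on salt, osmotic and high light stress, where it acts as a transcriptional repressor. Control replicates 1, 2 and 3 had log2 values of 7.63, 7.35 and 8.19, and salt replicates 1, 2 and 3 had 11.16, 10.84 and 9.94. As for ZAT6, control replicate 3 was the highest control array and salt replicate 3 the lowest salt array, with 1.75 between them. The mean rose from 7.72 ± 0.43 (SD, n = 3) to 10.65 ± 0.63 (SD, n = 3), by 2.92 (SE 0.34, limma adjusted p = 0.0021), the 59th largest rise.

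AZF2 is induced by abscisic acid (ABA) and high salinity and is known as a repressor of ABA-repressed and auxin-inducible genes. Its control arrays were close together, at 7.02, 6.97 and 6.86 in replicates 1, 2 and 3, whereas its salt arrays spread over 9.75, 9.19 and 8.61. Here control replicate 3 was the lowest of its group, unlike in ZAT6 and ZAT10. The mean rose from 6.95 ± 0.08 (SD, n = 3) to 9.18 ± 0.57 (SD, n = 3), by 2.23 (SE 0.26, limma adjusted p = 0.0021), the 162nd largest rise. The groups were 1.59 apart at their nearest arrays.

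ZAT11, known from work on root growth and nickel tolerance, differed most between salt arrays. Its log2 values were 5.15, 5.09 and 5.50 in control replicates 1, 2 and 3 and 7.60, 7.73 and 5.60 in salt replicates 1, 2 and 3. Control replicates 1 and 2 lay under 5.23, the level below which the lowest 30% of genes lie in mean signal. Salt replicate 3 was only 0.10 above the highest control array, while salt replicates 1 and 2 were more than 2 above it on the log2 scale. The mean went from 5.25 ± 0.22 (SD, n = 3) to 6.98 ± 1.19 (SD, n = 3), and the difference of 1.73 (SE 0.53, limma adjusted p = 0.056) did not pass. Without salt replicate 3 the difference was 2.42 (limma adjusted p = 5.6e-04), and without any other single array it was 1.35 to 1.86 and did not pass (highest adjusted p = 0.16). It passed with array weights (adjusted p = 0.014) and when the dimmest 30% of genes were left out (adjusted p = 0.044).

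ZAT5, a further member of the family, changed least. The control values were 5.79, 5.91 and 6.0 in replicates 1, 2 and 3, and the salt values were 6.33, 6.16 and 6.32. These groups did not overlap, but their nearest arrays were 0.16 apart. The mean went from 5.90 ± 0.11 (SD, n = 3) to 6.27 ± 0.10 (SD, n = 3), by 0.37 (SE 0.09, limma adjusted p = 0.031), the 2041st largest rise. The call was lost without control replicate 1, 2 or 3 (adjusted p = 0.13, 0.10 and 0.053, in this order) and without salt replicate 1 or 3 (adjusted p = 0.059 and 0.065), with differences between 0.32 and 0.42.

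**Figure D2:**
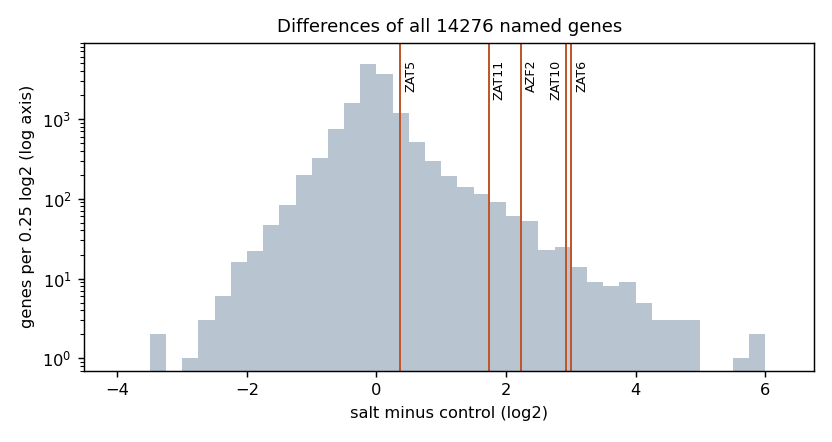
Histogram of the salt minus control difference (log2) for all 14276 named genes, with the number of genes on a log axis. Vertical lines mark the 5 measured genes, and ZAT6 and ZAT10, at 3.01 and 2.92, lie beyond the 99th percentile of all genes, which is 2.32.

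Ordered by the size of the difference, the genes ran ZAT6, ZAT10, AZF2, ZAT11 and ZAT5. Probe sets can respond to a given change on different scales, and no level of one probe set is set against another here. From the differences between genes within each array, ZAT6 rose by 0.08 (SE 0.13, n = 3 arrays per group) more than ZAT10 on the log2 scale, so that these neighbours did not differ beyond their spread. ZAT10 rose by 0.69 (SE 0.30) more than AZF2, which is over 2 SE. AZF2 and ZAT11 differed by 0.50 (SE 0.48) and ZAT11 and ZAT5 by 1.36 (SE 0.73), both within 2 SE. The difference between ZAT6 and ZAT5 was 2.64 (SE 0.43). These are descriptions of 10 pairs with no p-value. With 3 arrays per group, a distance just over 2 SE does not by itself set 2 genes apart.

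**Figure D3:**
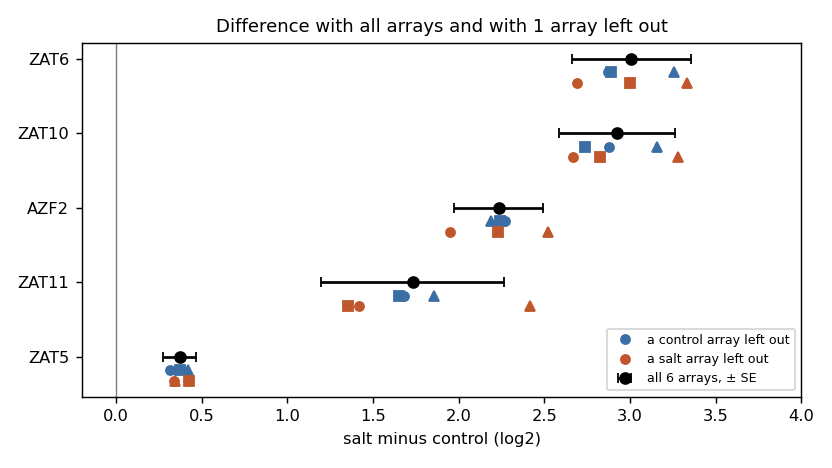
Salt minus control difference (log2) of each gene with all 6 arrays (black, ± SE from limma) and with 1 array left out. Blue marks stand for a control array and orange marks for a salt array left out, with circles, squares and triangles for replicates 1, 2 and 3. The difference of ZAT11 moved from 1.73 to 2.42 without salt replicate 3, whereas AZF2 stayed between 1.95 and 2.52.

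ZAT6, ZAT10, AZF2 and ZAT11 varied together between replicates, and ZAT5 did not vary with them. Salt replicate 3 was 0.57 to 1.38 below the salt mean for the first 4 genes, and 0.05 above it for ZAT5. Salt replicate 1 was 0.51 to 0.64 above the mean for the same 4 genes. Across the 6 deviations from group means, which hold 3 arrays of each group and share their arrays, ZAT6 and ZAT10 correlated at 0.958, the other pairs among the 4 genes at 0.729 to 0.876, and pairs with ZAT5 at -0.231 to 0.366. Control replicate 3 was the highest control array for ZAT6, ZAT10, ZAT11 and ZAT5 and the lowest for AZF2.

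Other genes that rose showed the same order of arrays in part. Salt replicate 3 was the lowest salt array for 4 of the 5 genes, for 42.9% of the 1629 genes called higher and for 33.7% of all genes, and among the genes called higher salt replicate 2 was the lowest more often, in 46.0%. Of the 759 genes at least 2-fold higher in the mean, salt replicate 3 was lowest in 55.6% and salt replicate 2 in 37.8%. Salt replicate 1 was the highest salt array for 4 of the 5 genes, for 66.4% of the genes called higher, for 73.8% of those at least 2-fold higher and for 36.4% of all genes. Control replicate 3 was the highest control array for 4 of the 5 genes, for 51.1% of the genes called higher, for 50.9% of those at least 2-fold higher and for 33.0% of all genes. The spread between salt arrays of ZAT11 was wider than that of 99.7% of all genes, those of ZAT6, ZAT10 and AZF2 were wider than those of 97.1%, 96.9% and 95.8%, and that of ZAT5 was wider than that of 25.5%. Between control arrays, ZAT6 and ZAT10 were more variable than 98.5% and 98.4% of genes and AZF2 than 47.1%. The excess of the 3′ over the 5′ GAPDH probe set was also lowest in salt replicate 3, with 0.07 against 0.37 and 0.29 in salt replicates 1 and 2. In control samples it was 0.39 to 0.45. For actin this excess was highest in salt replicate 3, with 3.66 against 3.36 and 3.47 in salt replicates 1 and 2. The GAPDH and actin signals thus went opposite ways. The 25S ribosomal RNA signal was highest in control replicate 3 (7.84 against 7.16 and 7.20) and in salt replicate 1 (10.24 against 9.05 and 9.48). The 5S ribosomal RNA signal was lowest in control replicate 3 (5.90) and highest in salt replicate 3 (6.71). The part of these signals in the values was not tested.

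**Figure D4:**
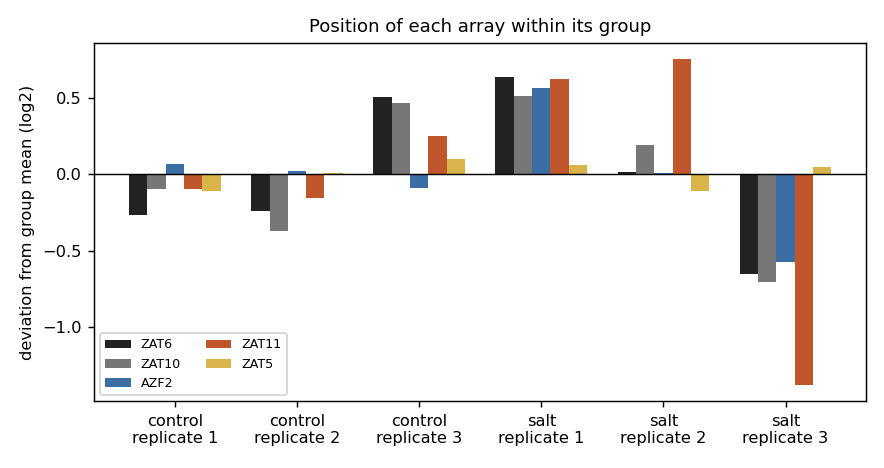
Deviation of each array from the mean of its group (log2) for the 5 genes. On salt replicate 3, ZAT6, ZAT10, AZF2 and ZAT11 lie 0.57 to 1.38 below the salt mean, and ZAT5 lies 0.05 above it.

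The genes whose profile over the 6 arrays was most like the mean of the 5 genes, each centred on its own mean, were TRE1 (AT4G24040), AT4G39670, CYP81D8 (AT4G37370), ERF13 (AT2G44840) and AT5G48370, with Pearson correlations of 0.998 or above. The points are 6 arrays in 2 groups, and 70 genes had a correlation above 0.99. TRE1, which encodes the enzyme that splits trehalose, had log2 values of 7.05, 7.01 and 7.34 in control and 9.38, 9.09 and 8.37 in salt replicates 1, 2 and 3, a rise of 1.81 (SE 0.25, limma adjusted p = 0.0041). Its arrays followed the same order as those of ZAT10 within the salt group. TRE1 was picked for likeness to a mean that includes ZAT10, so this order is no separate finding. The cytochrome P450 gene CYP81D8 rose by 4.52, AT4G39670 by 3.83, the ethylene response factor gene ERF13 by 1.60 and AT5G48370 by 0.45. ERF13 was dim, with control values of 4.33, 4.37 and 4.57, all under the 5.23 that marks the lowest 30% of genes. The call of AT5G48370 was lost when control replicate 1 (adjusted p = 0.081) or control replicate 2 (adjusted p = 0.083) was left out, and with the replicate block (adjusted p = 0.051).

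With the group means taken out first, the closest genes were TRE1, AT4G27880, AT3G47836, AT4G39670 and ALC (AT5G67110), at 0.997 or above, and 19 genes were above 0.99. Of these, TRE1 and AT4G39670 are the rising genes given above, and the other 3 did not rise. AT4G27880, with a difference of -0.09 (SE 0.13, limma adjusted p = 0.68), and ALC, a bHLH gene of fruit opening, with -0.04 (SE 0.10, limma adjusted p = 0.80), did not pass, and AT3G47836 fell by 0.60 (SE 0.09, limma adjusted p = 0.0060).

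A search by name found 13 other C2H2 zinc finger genes. Of these, 3 had a named probe set, and 2 of the 3 rose, beside 11.4% of all genes. STOP1 and ZFP6 were named only through the H2O2 list, of whose genes 36.9% were called higher, and AT3G53600 through the platform annotation. The search used gene symbols, synonyms and the annotation in the H2O2 list, and was made after the values had been seen. It does not stand for the whole C2H2 family, and further family members may be among the named genes. AT3G53600 had log2 values of 4.31, 4.22 and 4.00 in control replicates 1, 2 and 3 and 8.53, 8.06 and 5.71 in salt replicates 1, 2 and 3. Salt replicate 3 was again the lowest salt array, and here it still lay 1.40 above the highest control array. The difference was 3.26 (SE 0.67, limma adjusted p = 0.015), and all 3 control values were under 5.23, the level below which the lowest 30% of genes lie in mean signal. STOP1 (AT1G34370), a regulator of tolerance to acid soil and aluminium, rose by 1.05 (SE 0.23, limma adjusted p = 0.018). ZFP6 (AT1G67030), a regulator of trichome development, had -0.10 (SE 0.12, limma adjusted p = 0.63). Neither AT3G53600 nor STOP1 passed without control replicate 1, 2 or 3 (adjusted p between 0.052 and 0.061 for AT3G53600 and between 0.055 and 0.074 for STOP1).

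Genes of the signalling steps that are known to act before the ZAT genes were measured in part, and 3 of 10 listed kinases and oxidases had a named probe set. OXI1, a kinase activated by H2O2, had log2 values of 6.14, 6.43 and 6.50 in control and 10.20, 9.14 and 8.13 in salt replicates 1, 2 and 3. Its salt arrays fell in the same order as those of ZAT6 and ZAT10, and it rose by 2.80 (SE 0.46, limma adjusted p = 0.0077). MKK9, a mitogen-activated protein kinase kinase, rose by 0.90 (SE 0.15, limma adjusted p = 0.0087), but did not pass without both arrays numbered 3 (adjusted p = 0.059). MPK3, a mitogen-activated protein kinase, had 0.13 (SE 0.20, limma adjusted p = 0.69) and overlapping groups. All 3 were named only through the H2O2 list.

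Among listed regulators of responses to ROS, 6 of the 8 measured rose and 0 fell, with a median log2 difference of 1.62. All 8 were named only through the H2O2 list, among whose genes 36.9% were called higher. The regulators were also listed with earlier results of these data known, so this share is a description only. SZF1 (AT3G55980), a salt-inducible CCCH zinc finger gene, had values of 7.47, 6.99 and 8.15 in control and 10.37, 9.78 and 9.37 in salt replicates 1, 2 and 3. Control replicate 3 was high and salt replicate 3 low, as for ZAT10, and the gene rose by 2.30 (SE 0.34, limma adjusted p = 0.0053). WRKY33, known for roles in defence and salt tolerance, rose by 2.12 (SE 0.46, limma adjusted p = 0.018), and the heat shock factor gene HSFA2 by 1.62 (SE 0.22, limma adjusted p = 0.0040). The HSFA2 control values, 4.48, 4.69 and 4.59, were all under the 5.23 that marks the lowest 30% of genes. WRKY25, SZF2 and HSFA4A rose by 1.62, 1.58 and 1.53. The remaining members were WRKY30, with 1.68 (SE 0.76, limma adjusted p = 0.16), and the coactivator gene MBF1C, with 0.40 (SE 0.17, limma adjusted p = 0.13). WRKY25, SZF2, HSFA4A, WRKY30 and MBF1C are named to complete the count, after their values were seen.

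Single arrays decided some of these calls. In WRKY30 the salt values were 9.27, 8.49 and 6.21 in replicates 1, 2 and 3, with replicate 3 below the highest control array (7.11), and without salt replicate 3 the difference was 2.57 (limma adjusted p = 0.014). Without control replicate 1 or control replicate 2, WRKY25, WRKY33 and SZF2 did not pass (adjusted p between 0.069 and 0.080), which left 3 of the 8 called. WRKY25 also did not pass without both arrays numbered 3 (adjusted p = 0.0504), and WRKY30 did (adjusted p = 0.013).

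**Figure D5:**
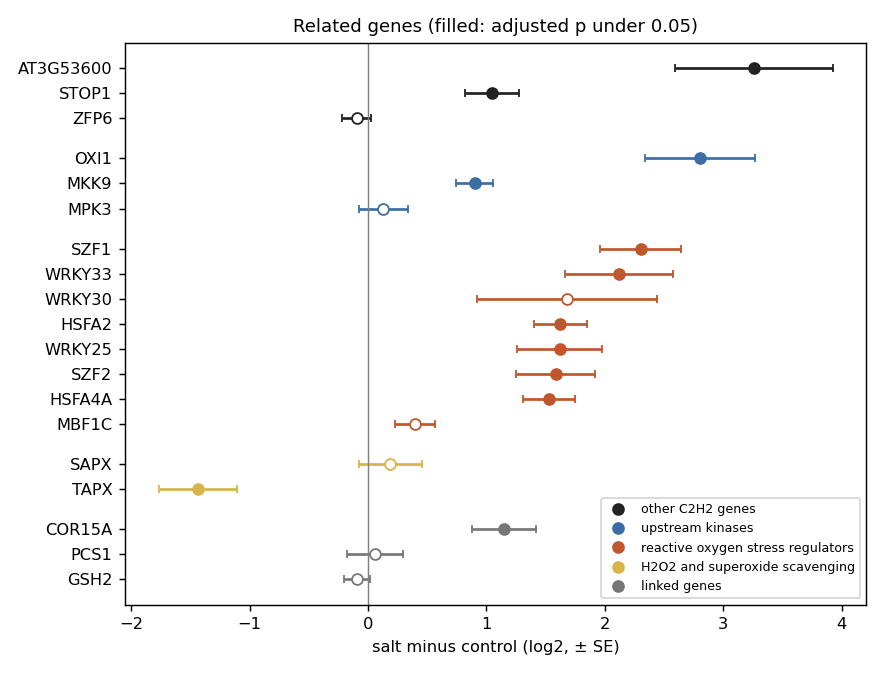
Salt minus control difference (log2, ± SE from limma) of related genes, coloured by list, with filled points for an adjusted p under 0.05 and open points otherwise. AT3G53600 and OXI1, at 3.26 and 2.80, are the largest rises shown, and TAPX, at -1.44, is the only gene shown that fell.

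Few genes linked to the action of these factors could be measured. Of 17 listed enzymes that remove H2O2 or superoxide, 2 had a named probe set. TAPX, the thylakoid ascorbate peroxidase, fell from 10.63, 10.56 and 10.41 in control replicates 1, 2 and 3 to 8.31, 9.75 and 9.23 in salt replicates 1, 2 and 3. Among salt arrays TAPX was lowest in replicate 1 and highest in replicate 2. For ZAT6, ZAT10 and AZF2 replicate 1 was highest and replicate 3 lowest, so the order of TAPX was not their reverse. The difference of TAPX was -1.44 on the log2 scale (SE 0.33, limma adjusted p = 0.022). It did not pass without control replicate 1, 2 or 3 (adjusted p between 0.058 and 0.083) or without both arrays numbered 3 (adjusted p = 0.11). SAPX, the stromal enzyme, had 0.19 (SE 0.27, limma adjusted p = 0.66). The cytosolic enzyme genes of the list, APX1 and APX2, were not analysed here.

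Of 12 listed genes that have been linked to ZAT or AZF factors as targets, 3 were measured. COR15A, which encodes a chloroplast protein that protects in cold and drought, rose by 1.15 (SE 0.27, limma adjusted p = 0.023), but not without control replicate 1, 2 or 3 or salt replicate 2 (adjusted p between 0.057 and 0.071). GSH2, for glutathione synthetase, had -0.09 (SE 0.11, limma adjusted p = 0.58), and PCS1, for phytochelatin synthase, 0.06 (SE 0.23, limma adjusted p = 0.89). None of the 5 listed CBF cold regulators and none of the 7 listed corepressor genes had a named probe set.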

How the data were processed

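RNA of control and salt-treated rosettes was measured on ATH1 arrays, each holding 1 sample. The authors deposited log2 values made by RMA in Bioconductor, 1 for each probe set. The labels also list GCRMA without a role, and versions are not given in the sources used here. The table holds 22810 probe sets, of which 64 control probe sets were left out of the tests. Names came first from the platform annotation (13513 with 1 gene, symbols updated through a reference gene table of assembly TAIR10.1). Otherwise they came from the available part of the study's supplementary list of H2O2-responsive genes (921). Probe sets with several genes (503) or no gene in these sources (7809) stayed unnamed. Where several probe sets named a gene, the brightest on average was kept, leaving 14276 genes.

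Salt was compared with control by limma (lmFit and eBayes, no block) over all genes, with Benjamini-Hochberg adjustment. A gene rose or fell if its adjusted p was under 0.05. An exact two-sided permutation test of 3 against 3 cannot give a p below 0.1. The fit was tested on simulated data. No sequences were used, so the planned searches of promoters and proteins were not run. The members and lists were chosen with earlier results of these data known. Besides the members, the text names 3 genes per list, taken by size of change first from genes past the threshold and then from the others, and the 5 closest profiles by each measure. Arrays give no depth, and their number limits the precision. Alternatives were quantile normalization or median centring of the arrays, omission of each array in turn, a replicate block, weights per array, a robust eBayes with a trend, removal of genes below the 30th or 50th percentile of signal, all 22746 probe sets, and annotation names alone. Leaving out both arrays numbered 3 was added after the data were seen. Tools were R 4.3.3, limma 3.58.1, Python 3.11.15, pandas 2.3.3, numpy 2.4.6 and matplotlib 3.10.9.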

Additional observations from a re-analysis of the deposited data

How the results depend on the processing

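ZAT6, ZAT10 and AZF2 were called higher under every alternative that tested them, with differences of 2.69 to 3.59, 2.67 to 3.51 and 1.95 to 2.52, and no alternative called a member lower. The count of members called higher ranged from 3 to 4 with 1 array left out and from 2 to 5 otherwise, the lowest being 2 of 2 with annotation names alone. ZAT11 passed with array weights (1.84), above the 30th percentile of signal (1.73) and without both arrays numbered 3 (2.545), with a range of 1.35 to 2.42 for 1 array left out. ZAT5 did not pass with the replicate block (0.37) or without both arrays numbered 3 (0.395), and had 0.315 to 0.425 with 1 array left out.

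Same-numbered deviations from group means correlated at -0.124, 0.052 and -0.139 for replicates 1, 2 and 3, and differently numbered ones at -0.103 to 0.165. Deviations within a group depend on each other, so these values cannot decide whether same-numbered samples were grown or handled together. The replicate block called 3 members and 1398 genes higher and 1345 lower. Over all genes, 2645 and 3145 probe sets were called higher and lower when all were tested, 1053 and 544 genes without both arrays numbered 3, and 837 to 1701 and 492 to 1891 with 1 array left out. Counts of ROS regulators called higher ran from 3 to 7 and of other C2H2 genes from 0 to 2 with 1 array left out, and 1 C2H2 gene was called with annotation names alone or above the 50th percentile. Of the tissue markers, which did not pass, PYK10 passed as lower with array weights, with either signal filter and without both arrays numbered 3 (adjusted p = 0.041 to 0.048) and without salt replicate 3 (adjusted p = 0.0086), and RCA with median centring (adjusted p = 0.045). Signs turned for genes that did not pass: SAPX (-0.075 to 0.50), MPK3 (-0.02 to 0.30), PCS1 (-0.105 to 0.265), AT4G27880 (-0.19 to 0.047) and ALC (-0.11 to 0.043) with 1 array left out, and AT4G27880 (0.10) and ALC (0.08) without both arrays numbered 3. The cause of these changes was not tested. A count for proteins with the plant zinc finger motif was not run.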
